A study of Mus musculus with 4 samples.

Results

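The splicing factor and hnRNP genes described here are the protein-coding genes of GENCODE M21 whose symbols begin with Snrp, Sf3a, Sf3b, Srsf, Prpf, Hnrnp or U2af, with Snrpn left out. The symbol alone chose them, and 67 of 21866 protein-coding genes met the rule, on 18 chromosomes. The data are CUT&RUN peak lists for the forkhead protein FOXR2, in which an antibody against a tag directs a nuclease to the tagged protein and the DNA cut free is sequenced. The antibody was against the V5 tag. A Foxr2 p53LOF neurosphere line and a V5 control line that lacks the tag were each profiled in 2 replicates. Both lines are on the C57BL/6J strain and came from brain tumor models made by in utero electroporation, in which vectors are delivered into neural stem cells of the embryo. The Foxr2 p53LOF line carries a piggyBac vector expressing FOXR2, C-terminally tagged with V5, from the constitutive CAG promoter, together with CRISPR targeting of Trp53. The control line has the genotype H3.3G34R, so the lines differ in more than the tag. FOXR2 here is overexpressed from a vector, and a single Foxr2 p53LOF line was profiled. No source states that the replicates were separate cultures, so their spread may be technical.

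The spliceosome removes introns from pre-mRNA. It is built from small nuclear RNAs, most of them held in a ring of Sm proteins and joined by proteins particular to the U1, U2 or tri-snRNP particle. U2AF and the SF3 proteins bring the U2 particle to the 3′ end of the intron. The SR proteins (Srsf) bind exonic enhancers and mostly favor exon inclusion, and the hnRNP proteins coat nascent RNA and often oppose them. These genes are expressed in nearly all cells, commonly from promoters rich in CpG dinucleotides, and dividing cells need them in quantity.

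The Foxr2 p53LOF lists held 31909 and 38580 peaks, and the control lists held 308 and 124. A peak's fold is the number of fragments at its summit plus 1 over the library background plus 1, so folds were read within a library. A fold above 6 needed 13 fragments in Foxr2 p53LOF replicate 1 and 18 in replicate 2. In the control it needed 16 fragments in replicate 1 and 9 in replicate 2. A reproducible site is a stretch covered in both Foxr2 p53LOF replicates by peaks that passed the study's filter, namely no overlap with a control peak, a fold above 6, a −log10 q above 6 and a length under 10000 bp. The study also required overlap with open chromatin peaks from snATAC-seq, which were not used here, so these sites are not its final set. There were 11947 such sites. A promoter site lies within 1 kb of a protein-coding transcript start. Its lower fold is the smaller of the highest folds of the 2 replicates. Intervals given with folds are 95% Poisson intervals on the fragments at the summit and cover counting error only. No expression data were used here, so a site says nothing of a gene's transcript level.

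The promoters on which the results turn are shown first, in GRCm38.p6 (the build of mm10) with GENCODE M21 starts. Hnrnpa1 and Hnrnpa2b1 encode the most abundant A/B-type hnRNP proteins and had the strongest sites of the hnRNP genes. Prpf19, a ubiquitin ligase needed to activate the spliceosome, held the ETS-type sequence CCGGAAG both at its start and in the centre of its site. Each stretch is printed 5′ to 3′ on the strand of its gene and ends 30 bases into the first annotated exon. Capitals mark CCGGAAG and the CCAAT sequence bound by NFY, either of them on either strand. The Hnrnpa1 stretch is chr15:103240282-103240461 on the plus strand. The Hnrnpa2b1 stretch is chr6:51469865-51470044 on the minus strand. The Prpf19 stretch is chr19:10895081-10895260 on the plus strand.
Hnrnpa1: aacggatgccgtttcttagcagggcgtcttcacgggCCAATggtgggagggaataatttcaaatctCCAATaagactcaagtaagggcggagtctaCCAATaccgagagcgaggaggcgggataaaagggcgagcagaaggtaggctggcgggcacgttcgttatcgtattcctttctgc
Hnrnpa2b1: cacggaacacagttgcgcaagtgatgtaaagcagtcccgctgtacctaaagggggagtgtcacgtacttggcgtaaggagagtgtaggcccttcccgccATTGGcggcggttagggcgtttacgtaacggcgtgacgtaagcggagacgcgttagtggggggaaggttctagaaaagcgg
Prpf19: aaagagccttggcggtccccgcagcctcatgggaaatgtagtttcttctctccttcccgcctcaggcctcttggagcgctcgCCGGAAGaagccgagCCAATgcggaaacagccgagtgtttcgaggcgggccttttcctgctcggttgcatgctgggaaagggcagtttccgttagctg

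For 3 further genes only the 29 bases around the CCGGAAG nearest the start are shown, because annotated exons begin close by. U2af2 encodes the large U2AF subunit, which binds the polypyrimidine tract, and Sf3a1 and Sf3a3 encode subunits of SF3A in the U2 particle. Capitals mark the same letters, printed on the strand that reads CCGGAAG. The stretches are chr7:5062182-5062210 on the plus strand for U2af2, chr11:4160336-4160364 on the plus strand for Sf3a1 and chr4:124714760-124714788 on the minus strand for Sf3a3, a gene of the plus strand.
U2af2: gccggcgggggCCGGAAGtagccgaagcc
Sf3a1: agagggcgggaCCGGAAGtgctcccgcgg
Sf3a3: ttccgcgtgtcCCGGAAGtgtcttggggg

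Sites of FOXR2-V5 were present at the promoters of nearly all splicing factor and hnRNP genes. A reproducible promoter site was present at 63 of the 67 genes (94.0%), against 39.3% of all protein-coding genes. The same 63 genes had a site in the gene body or the 10 kb on either side, against 49.9% of all genes. Before the filter, 65 genes had a promoter peak in replicate 1, against 53.4% of all genes, and 65 had one in replicate 2, against 54.4%. Neither control replicate had a peak at any of the 67 promoters, against 0.183% of all genes in control replicate 1 and 0.146% in control replicate 2. No control peak lay in any of the 67 gene regions.

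CpG-rich promoters carried sites more often across the genome, and the genes studied are rich in them. A promoter was called CpG-rich where the sequence from 250 bp before to 50 bp after the start had a GC content of at least 55% and an observed over expected CpG ratio of at least 0.65. By that measure 45 of the 67 genes (67.2%) had a CpG-rich promoter, against 36.7% of all genes. Of those 45 genes 44 had a site (97.8%), against 68.8% of all genes with a CpG-rich promoter. The median GC content was 58.7% for the 67 genes and 55.7% for all genes, and the median CpG ratio was 0.874 against 0.556. The part of promoter composition in the share of genes with a site was not tested further.

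**Figure D1:**
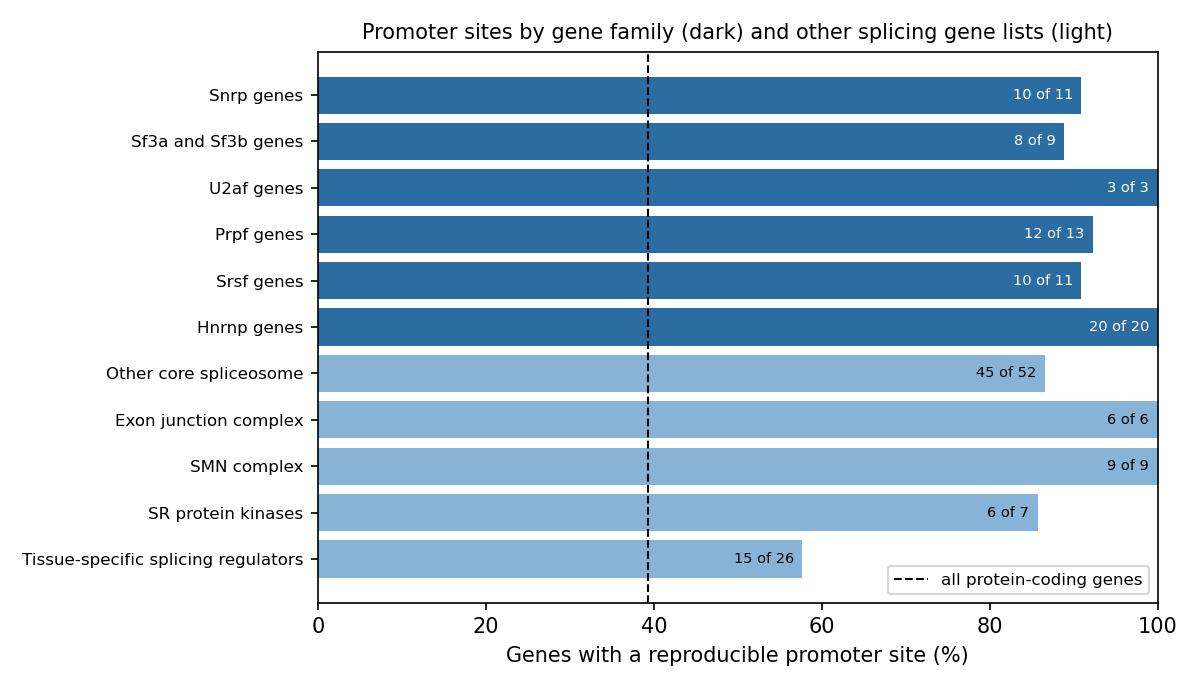
Share of genes with a reproducible promoter site (horizontal axis, percent) for each gene family (dark bars) and for 5 other lists of splicing genes (light bars), with the number of genes in each bar and the share of all protein-coding genes (39.3%) as a dashed line. Every family lies above the line, and the tissue-specific splicing regulators, at 15 of 26 genes, lie nearest to it.

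The sites at these promoters were also high. The median lower fold was 15.0 at the 63 promoters, with 25th and 75th percentiles of 9.28 and 19.7. Over all 8599 genes with a promoter site it was 10.2, with percentiles of 7.95 and 13.7. Of the 63 genes, 43 lay above the median of all genes and 9 lay below the 25th percentile of all genes. A lower fold of at least 20 was reached by 15 of the 63 genes (23.8%), against 8.38% of all genes with a promoter site. The median site length was 2577 bp at these genes and 1911 bp over all genes with a site.

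**Figure D2:**
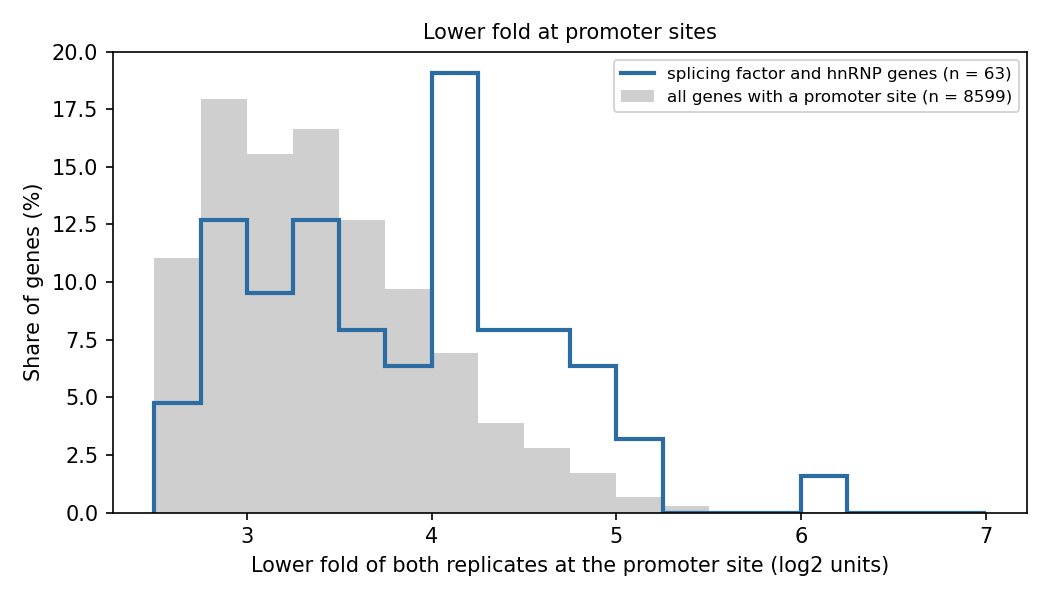
Distribution of the lower fold of both replicates at promoter sites (horizontal axis, log2 units; vertical axis, share of genes in percent) for all 8599 genes with a promoter site (grey bars) and for the 63 splicing factor and hnRNP genes (blue line). The blue line lies above the grey bars from 4 to 5.25 log2 units, with 15 of 63 genes at a lower fold of at least 20 against 8.38% of all genes.

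The replicates ranked the genes alike. Spearman's rho between the folds of replicates 1 and 2 was 0.907 across the 63 genes, which are not independent replicates, and 0.826 across all 8599 genes. Replicate 2 gave the higher fold at 51 of the 63 genes, with a median ratio of 1.22 and a range from 0.779 to 1.88, and at 6460 of all 8599 genes, so the difference was shared by the library as a whole. The counting intervals of the replicates overlapped at 60 of the 63 genes, and at 8427 of all 8599 genes with a promoter site. The median fold was 15.0 in replicate 1 and 17.1 in replicate 2.

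**Figure D3:**
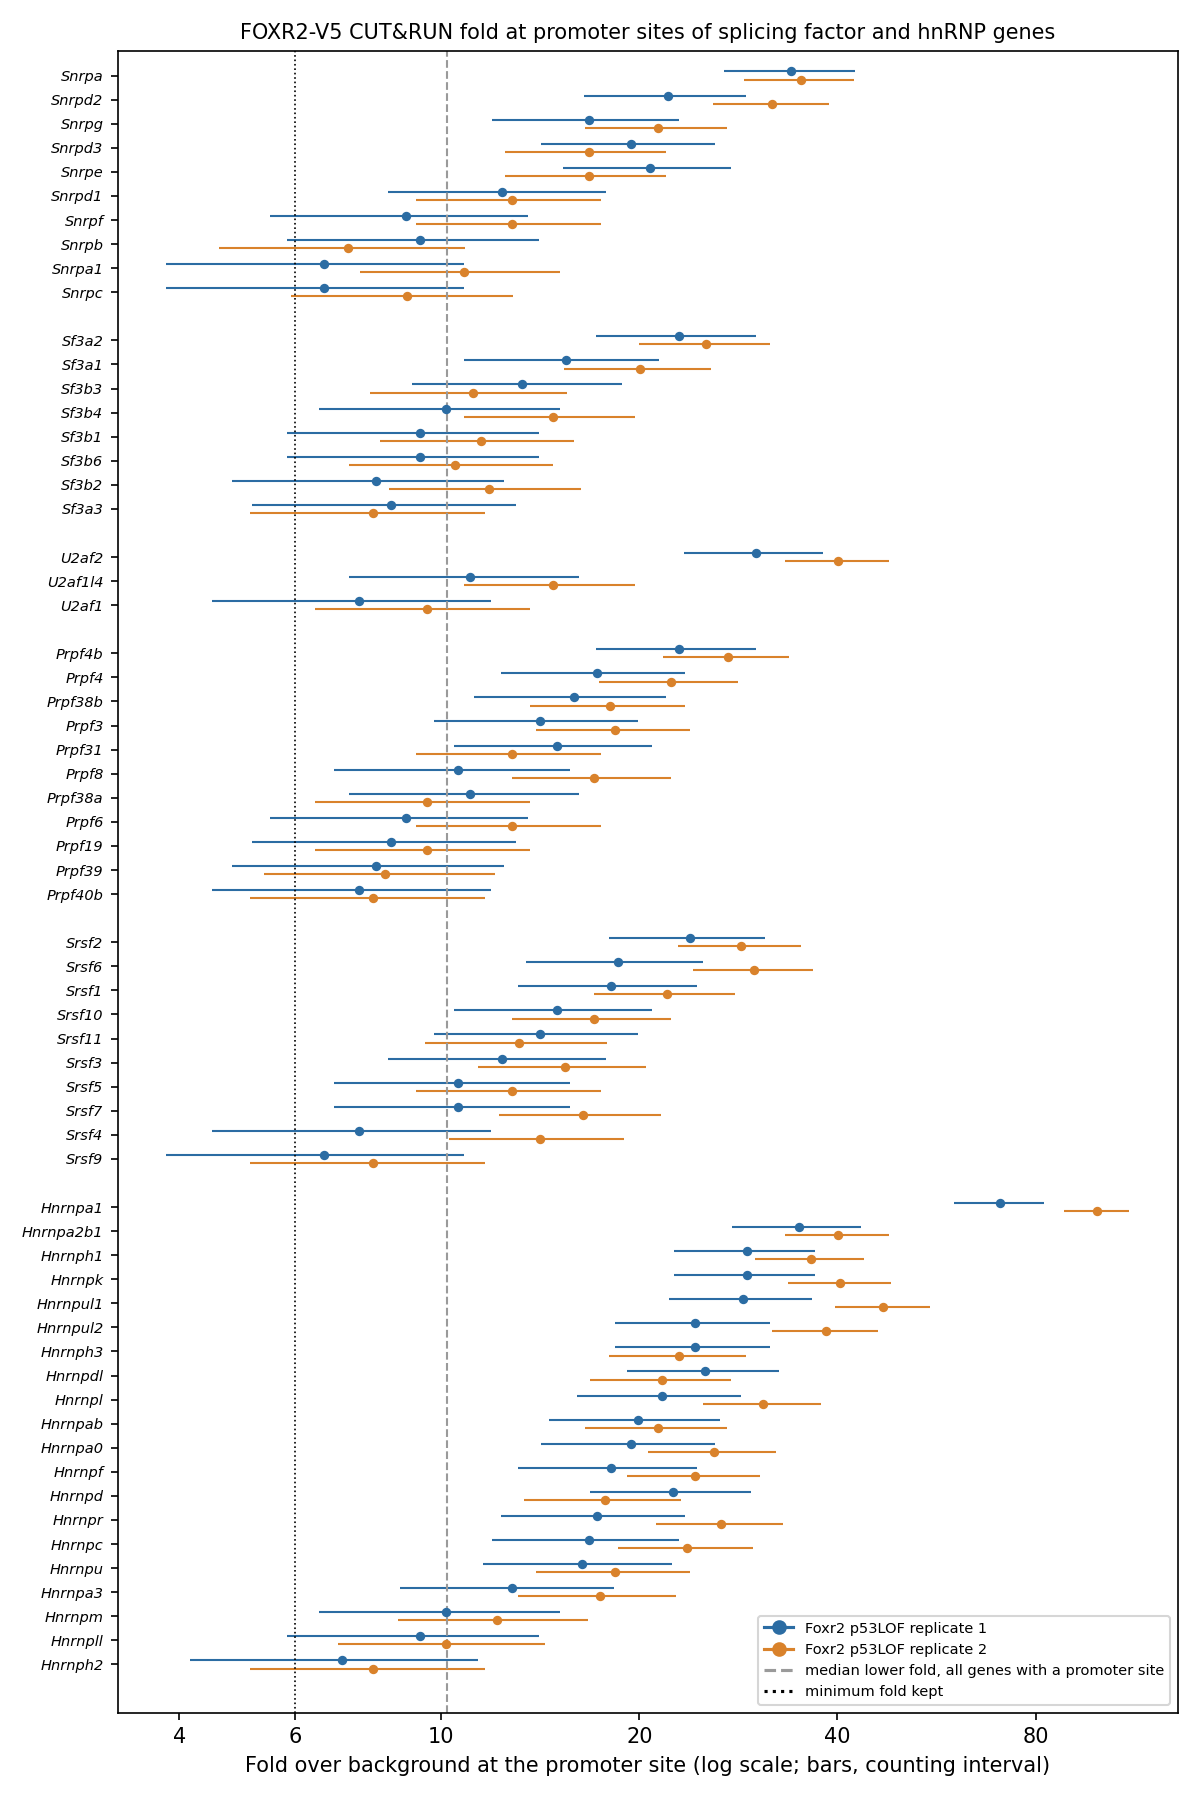
Fold over background at the promoter site (horizontal axis, log scale) of 62 of the 63 genes with a site, in Foxr2 p53LOF replicate 1 (blue) and replicate 2 (orange), with bars for the 95% counting interval, a dotted line at the minimum fold of 6 and a dashed line at the median lower fold of all genes with a promoter site (10.2). Hnrnpa1 stands apart from every other gene in both replicates, and 17 of the 20 hnRNP genes have a lower fold above the dashed line.

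The Sm ring, common to the spliceosomal U1, U2, U4 and U5 particles, was occupied at all 7 of its genes, with a median lower fold of 16.8. Snrpd2 (SmD2) was the highest, with a fold of 22.1 (16.5 to 29.1) in replicate 1 and 31.9 (25.9 to 38.8) in replicate 2. Its site lies at chr7:19148188-19150323 and also covers the start of Qpctl. Snrpg (SmG) had folds of 16.8 (12.0 to 23.0) and 21.4 (16.5 to 27.2). The intervals of Snrpg overlapped those of Snrpd2, so the order of these genes is within counting error. Snrpe (SmE) and Snrpd3 (SmD3) had folds of 20.8 and 19.4 in replicate 1 and of 16.8 each in replicate 2. Snrpd1 (SmD1) had folds of 12.4 and 12.8. Snrpf (SmF), at 8.84 and 12.8, and Snrpb (SmB), at 9.28 and 7.23, were the lowest. The upper limit of Snrpb in replicate 2, 10.9, lay below the lower limit of Snrpd2 in that replicate, so within the ring the highest and lowest genes differed beyond counting error.

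The genes of the U1 particle, which recognizes the 5′ splice site, differed widely in fold. All 5 had a site, with a median lower fold of 7.95. Snrpa, whose protein binds a stem loop of U1 RNA, had a fold of 34 (26.9 to 42.5) in replicate 1 and 35.2 (28.8 to 42.4) in replicate 2. Its site at chr7:27194775-27196914 is shared with the start of BC024978 and ranked 52 among 7484 distinct promoter sites. Snrpc, whose protein stabilizes the pairing of U1 with the splice site, was among the lowest of all the genes, with folds of 6.63 (3.82 to 10.8) and 8.87 (5.91 to 12.8). Replicate 1 had 14 fragments at its summit, 1 above the minimum. Prpf40b, a protein associated with U1, had folds of 7.51 (4.48 to 11.9) and 7.88 (5.12 to 11.7). Prpf39, a further U1-associated protein, had folds of 7.95 and 8.21.

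The U2 particle, which binds the branch point, had the lowest levels of the larger groups. Sites were present at 9 of its 11 genes, with a median lower fold of 9.28, below the median of all genes with a site. Sf3a2 was the highest of the group, with folds of 23.0 (17.2 to 30.1) and 25.3 (20.0 to 31.6) at chr10:80797268-80799590, a site shared with Plekhj1. Sf3a1 followed with 15.5 (10.8 to 21.4) and 20.0 (15.4 to 25.7), at a site shared with Ccdc157. Sf3a3, the remaining SF3A subunit, had folds of 8.39 (5.15 to 13.0) and 7.88 (5.12 to 11.7). In both replicates its interval ended below the start of that of Sf3a2, so the folds at these promoters differed beyond counting error. The Sf3a2 site is shared with Plekhj1, so its fold cannot be given to Sf3a2 alone. Of the SF3B genes, Sf3b3 had folds of 13.3 (9.02 to 18.8) and 11.2 (7.79 to 15.6). Sf3b1, which contacts the branch point and is recurrently mutated in human cancers, had folds of 9.28 and 11.5. Sf3b2, Sf3b4 and Sf3b6 had lower folds between 7.95 and 10.2. The intervals of the 5 SF3B genes with a site overlapped in both replicates. Snrpa1, whose protein binds U2 RNA, had folds of 6.63 (3.82 to 10.8) and 10.8 (7.52 to 15.2).

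All 3 U2AF genes had a site, and the subunits differed. U2af2 had a fold of 30.0 (23.4 to 38.0) in replicate 1 and 40.1 (33.3 to 47.8) in replicate 2, at chr7:5060029-5064041, a site at no other gene's start. U2af1, the small subunit that reads the AG at the 3′ splice site, had folds of 7.51 (4.48 to 11.9) and 9.53 (6.44 to 13.6). Its relative U2af1l4 had folds of 11.0 (7.24 to 16.2) and 14.8 (10.8 to 19.7). The interval of U2af2 lay above those of both small subunits in each replicate. The stretch of the U2af2 promoter printed above holds its CCGGAAG, 52 bases before the start used for sequence counts. All 29 printed bases lie in an annotated exon that begins further upstream.

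Of the 10 genes of the tri-snRNP and of spliceosome activation, 9 had a site, with a median lower fold of 12.8. Prpf4b, a kinase that phosphorylates tri-snRNP proteins, was the highest, with folds of 23.0 (17.2 to 30.1) and 27.3 (21.8 to 33.8). Prpf4, a protein of the U4/U6 particle, had folds of 17.2 (12.3 to 23.5) and 22.3 (17.4 to 28.3), at a site shared with Cdc26. Its partner Prpf3 had folds of 14.1 (9.75 to 19.9) and 18.4 (13.9 to 23.8). Prpf3 and Prpf4 thus lay within counting error of each other in both replicates. Prpf31, which binds U4 RNA and whose loss causes retinal degeneration in humans, had folds of 15.0 (10.5 to 20.9) and 12.8 (9.16 to 17.5). Prpf8, the scaffold of the catalytic center, had folds of 10.6 (6.88 to 15.7) and 17.1 (12.8 to 22.4), and Prpf6 had 8.84 and 12.8. Prpf38a and Prpf38b, at lower folds of 9.53 and 15.9, had intervals that overlapped in replicate 1 and did not overlap in replicate 2 (6.44 to 13.6 against 13.7 to 23.5). Prpf19 was the lowest of this group at 8.39 (5.15 to 13.0) and 9.53 (6.44 to 13.6).

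SR protein genes had a site at 10 of 11, with a median lower fold of 12.8. Srsf2 (SC35), Srsf6 and Srsf1 (SF2/ASF) led. Srsf2 had folds of 23.9 (18 to 31.1) and 28.6 (22.9 to 35.2), at chr11:116851389-116855138, where the gene Mfsd11 starts on the other strand. Srsf6 had folds of 18.6 (13.4 to 25.0) and 29.9 (24.1 to 36.7). Srsf1, a proto-oncogene in several tumor types, had folds of 18.1 (13.1 to 24.5) and 22.0 (17.1 to 27.9). These 3 genes did not differ beyond their counting intervals. Srsf10 and Srsf11 had lower folds of 15.0 and 13.1. Srsf3, Srsf5 and Srsf7 had lower folds between 10.6 and 12.4, with replicate 2 folds of 15.4, 12.8 and 16.4. The lowest were Srsf4, at 7.51 (4.48 to 11.9) and 14.1 (10.3 to 19.0), and Srsf9, at 6.63 (3.82 to 10.8) and 7.88 (5.12 to 11.7). Both upper limits of Srsf9 lay below both lower limits of Srsf2.

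The hnRNP genes had the highest levels. All 20 had a promoter site, the median lower fold was 19.7, and 9 of the 20 had a lower fold of at least 20, against 8.38% of all genes with a promoter site. Their sites were long, with a median of 3723 bp. Hnrnpa1 (hnRNP A1, which binds exonic silencers) had a fold of 70.7 (60.2 to 82.5), from 159 fragments, in replicate 1 and 99.2 (88.4 to 111), from 301 fragments, in replicate 2. Its lower fold was the highest of all 11947 reproducible sites. In each replicate its interval lay above that of every other of the 67 genes. The site, chr15:103238758-103243808, spans 5051 bp and also covers the start of Cbx5, and both summits lay about 300 bp upstream of Hnrnpa1, at −315 bp in replicate 1 and −305 bp in replicate 2. Hnrnpa2b1 (hnRNP A2/B1) was the next highest, with folds of 34.9 (27.7 to 43.4) and 40.1 (33.3 to 47.8), at chr6:51466695-51473570, a site of 6876 bp shared with Cbx3. Cbx5 and Cbx3 encode heterochromatin proteins of the HP1 family, and the promoter between HNRNPA2B1 and CBX3 is known as a ubiquitous chromatin opening element that keeps linked transgenes active. With a shared site the data cannot tell the genes of such a pair apart.

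A further group of hnRNP genes followed closely. Hnrnph1, which binds G-rich tracts, had folds of 29.2 (22.6 to 37.0) and 36.5 (30.0 to 43.9). Hnrnpk, a KH-domain protein that binds C-rich sequences, had folds of 29.2 (22.6 to 37.0) and 40.4 (33.6 to 48.2), at a site shared with Rmi1. Hnrnpul1 had folds of 28.7 (22.2 to 36.5) and 47.0 (39.6 to 55.3). Their intervals overlapped those of Hnrnpa2b1 in both replicates, so the order among these genes is within counting error. Hnrnpul2, Hnrnph3, Hnrnpdl and Hnrnpl had lower folds from 21.7 to 24.3. Of these, Hnrnpul2 had a fold of 38.4 (31.8 to 46.0) in replicate 2, above that of Hnrnph1 in the same replicate. Hnrnpab, Hnrnpa0, Hnrnpf, Hnrnpd, Hnrnpr, Hnrnpc and Hnrnpu lay between 16.3 and 19.9. Hnrnpa3 had a lower fold of 12.8, Hnrnpm of 10.2 and Hnrnpll, which regulates Ptprc splicing in lymphocytes, of 9.28. Hnrnph2, the X-linked paralog of Hnrnph1, was the lowest at 7.07 (4.15 to 11.4) and 7.88 (5.12 to 11.7), in a site shared with Gla. The intervals of Hnrnph1 and Hnrnph2 did not overlap in either replicate. Chromosome X also had the lowest median lower fold of any chromosome, 7.88 over 98 genes with a promoter site, and whether the chromosome sets the level of Hnrnph2 was not tested.

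The 4 genes without a promoter site differed in how far they fell short. Snrpb2 (U2B″), a U2 protein, had peaks over its start in both replicates, with a fold of 7.07 from 15 fragments in replicate 1 and a fold of 4.93 from 14 fragments in replicate 2, under the minimum of 6. Prpf18, needed for the second step of splicing, had a peak of fold 4.42 in replicate 1 and a separate peak of fold 6.90 in replicate 2, which did not overlap. Sf3b5 had peaks of fold 4.86 in replicate 1 and 6.57 in replicate 2 that overlapped each other but lay away from its GENCODE start. The RefSeq annotation of the same build starts the gene 3107 bp further downstream, and both peaks cover that start, with summits at 73 bp and −380 bp from it. Replicate 1 of Sf3b5 was still under the minimum fold. Srsf12, an SR-like protein that opposes other SR proteins, had no peak in any of the 4 libraries, either at its promoter or elsewhere in its region. At the other end of the threshold, the lowest lower fold that was kept was 6.63, at Snrpa1, Snrpc and Srsf9.

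Shared promoters were a common feature of the higher sites. Of the 63 promoter sites, 22 (34.9%) also lay within 1 kb of the start of another gene, against 26.1% of all genes with a promoter site. At those 22 genes the median lower fold was 17.5, and 10 of them reached a lower fold of 20. At the other 41 genes the median was 12.4, and 5 reached 20. Over all genes with a promoter site the medians were 11.5 at shared sites and 9.72 at sites of a single gene, and 332 of 2241 and 389 of 6358 genes reached 20. The levels at sites of a single gene were thus also above those of all genes, with U2af2 (30.0), Hnrnph1 (29.2), Hnrnpul1 (28.7) and Prpf4b (23.0) the highest lower folds among them.

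A promoter site lies by definition within 1 kb of a start. The median summit was 32 bp downstream of the nearest start in replicate 1 and at −137 bp, upstream, in replicate 2. Summits fell within 250 bp of a start at 34 genes in replicate 1 (54.0%) and 35 in replicate 2 (55.6%), against 59.4% and 60.3% of all genes with a promoter site, whose median summits were at 50 bp and 23 bp. The summits of the replicates were a median of 95.0 bp apart, against 76.0 bp for all genes. Hnrnpu (SAF-A, a scaffold attachment protein) was the only gene of the 63 with summits over 1 kb from a start, at 1497 bp and 1616 bp downstream, within a site of 4850 bp that covers the start. Before the filter the Hnrnpu region also held peaks of fold 43.3 in replicate 1 and 44.0 in replicate 2. These lay away from the promoter, where the folds were 16.3 and 18.4, and gave no reproducible site. The summits of U2af2 were 85 bp downstream of a start in replicate 1 and at −690 bp in replicate 2, so within this wide site the highest point differed between the libraries.

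**Figure D4:**
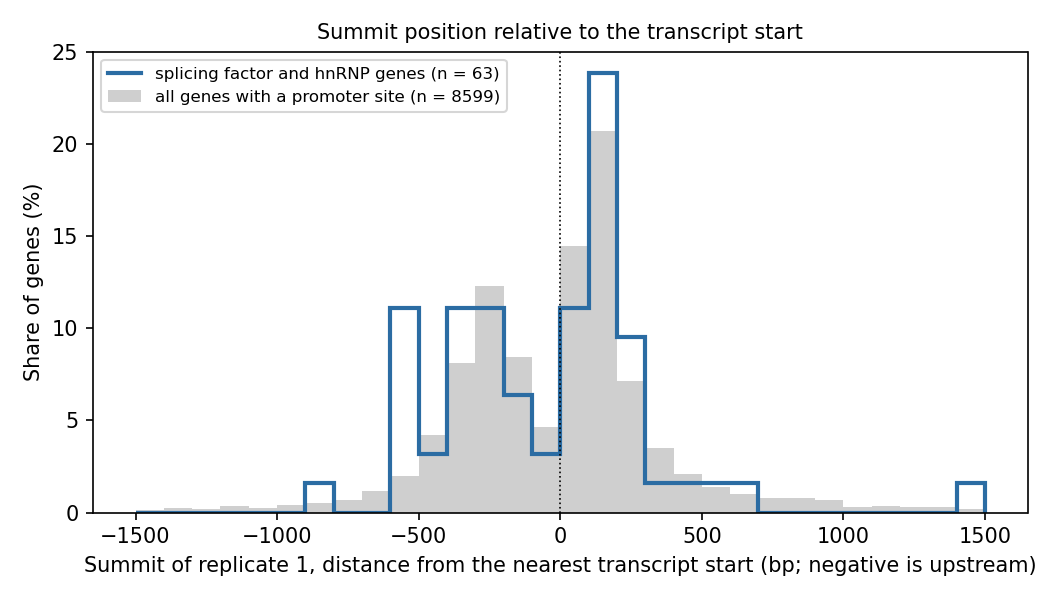
Distance of the replicate 1 summit from the nearest protein-coding transcript start (horizontal axis, bp; negative is upstream) as a share of genes (vertical axis, percent), for all 8599 genes with a promoter site (grey bars) and the 63 splicing factor and hnRNP genes (blue line). Both have a peak just downstream of the start and a lower one upstream, with 54.0% of the 63 summits within 250 bp of a start (summits over 1500 bp away are not drawn).

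Most sites away from the promoters lay at the start of another gene. The 67 regions held 30 further sites, in 24 genes (35.8%, against 25.5% of all genes). Of the 30, 23 lay at the start of another gene (76.7%, against 56.8% of the further sites of all genes), such as the sites of Rab4b near Snrpa (folds of 25.6 and 34.8), Rprd2 near Prpf3 (25.6 and 29.6) and Fam136a near Snrpg (19.9 and 22.0). Similar neighbors were Hspb6 and Proser3 near U2af1l4 (24.3 and 23.3), Jmjd6 and Mettl23 near Srsf2 (21.2 and 21.4) and Cnot3 near Prpf31 (16.3 and 23.3). Near Hnrnpul2, Prpf8, Prpf39, Snrpa1, Srsf9 and Srsf10 such sites had lower folds from 10.2 to 12.5. A site at no other gene's start was found in 6 of the 67 regions (8.96%), against 11.0% of all genes. Those genes were Hnrnpab, Hnrnpc, Prpf38b, Sf3a1, Sf3a3 and Sf3b3. The Sf3a1 site, chr11:4180890-4184664, lies at the 3′ end of the gene with its replicate 1 summit in the UTR, and had folds of 11.0 and 15.8. The Sf3b3 site, chr8:110814876-110817055, is 31019 bp into the gene by its replicate 1 summit, with folds of 8.39 and 9.53. The Hnrnpc site, whose replicate 1 summit was at −2766 bp from the start, had a fold of 12.4 there, while its replicate 2 fold of 23.7 belonged to a wide peak whose summit is at the promoter. Both further sites of Hnrnpab took their replicate 2 fold, 30.6, from a wide peak whose summit at −13052 bp lay outside either stretch.

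CCGGAAG, the core of sites bound by ETS proteins such as ELK and GABP, was present in a larger share of these promoters than of promoters at large, while its share at the sites depended on where the window was placed. From 250 bp before to 50 bp after the start, on either strand, it was present in 18 of the 67 promoters (26.9%), against 11.2% of all promoters, 19.9% of those with a promoter site and 19.5% of CpG-rich promoters. In the 200 bp at the centre of the promoter site it was present at 4 of 63 genes (6.35%), against 9.61% of genes with a promoter site. Those 4 genes were Hnrnpl, Prpf31, Prpf19 and Sf3a3. In the 200 bp around the mean position of the replicate summits it was present at 8 of 63 genes (12.7%), against 8.09%. A site is several times longer than the 200 bp searched, so the centre need not hold the start.

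The sequence was also counted in each family, and it did not mark the highest sites. CCGGAAG was in the promoter of 4 of 11 Snrp genes, 4 of 9 Sf3a and Sf3b genes and 1 of 3 U2af genes. It was in 3 of 13 Prpf, 4 of 11 Srsf and 2 of 20 Hnrnp promoters, the last being those of Hnrnpd and Hnrnpf. The share was 11.2% over all promoters and 19.9% over those with a promoter site. The families are small, and differences between them were not tested. The 16 genes with both CCGGAAG and a promoter site had a median lower fold of 10.6, and the 47 without it had a median of 16.4. Over all genes with a promoter site these medians were 9.86 and 10.2. Hnrnp genes, the family with the highest folds, were 2 of the 16 and 18 of the 47. The sequence was read at a single start of each gene and the fold at the highest site of any start. At Hnrnpf and Srsf11 the sequence and the site thus lay at different starts. U2af2, at 30.0, was the highest with the sequence. Prpf18 and Snrpb2, both without a site, held it at their starts, at −14 in Prpf18 and at 3 and 22 in Snrpb2, counted from the start.

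CCAAT and the SP/KLF-type CCCGCCC were the most common of the other sequences, each in 13 of the 20 Hnrnp promoters. CCAAT was present in 33 of the 67 promoters (49.3%), against 38.6% of all promoters and 39.6% of those with a site. Hnrnpa1 held 4 of them between −226 and −54, of which the stretch above shows 3, and Hnrnpr and Hnrnpul1 also held 4. CCCGCCC was in 50.7% of the 67 promoters, against 33.5% of all promoters and 49.9% of those with a site. The MYC/MAX E-box CACGTG was in 11.9% of the 67, against 7.76% of all promoters and 11.0% of those with a site. The NRF1-type GCATGCGC was in 2.99%, against 3.75% and 6.13%. The YY1-type ATGGCGGC was in 4.48%, above the 2.73% of all promoters and below the 5.24% of those with a site. TATAAA was in 11.9%, near the 12.5% of all promoters and above the 6.06% of those with a site. The forkhead-type TGTTTAC, the class of sequence that most proteins of the FOX family bind, was in 3 of the 67 promoters (4.48%), against 2.93% of all promoters and 2.34% of those with a site, namely those of Snrpf, Srsf6 and Srsf12. Each motif was searched as exact letters on both strands, so a match is a description of the sequence and a missing match says only that these letters were not in the window. None of these sequences contains another.

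**Figure D5:**
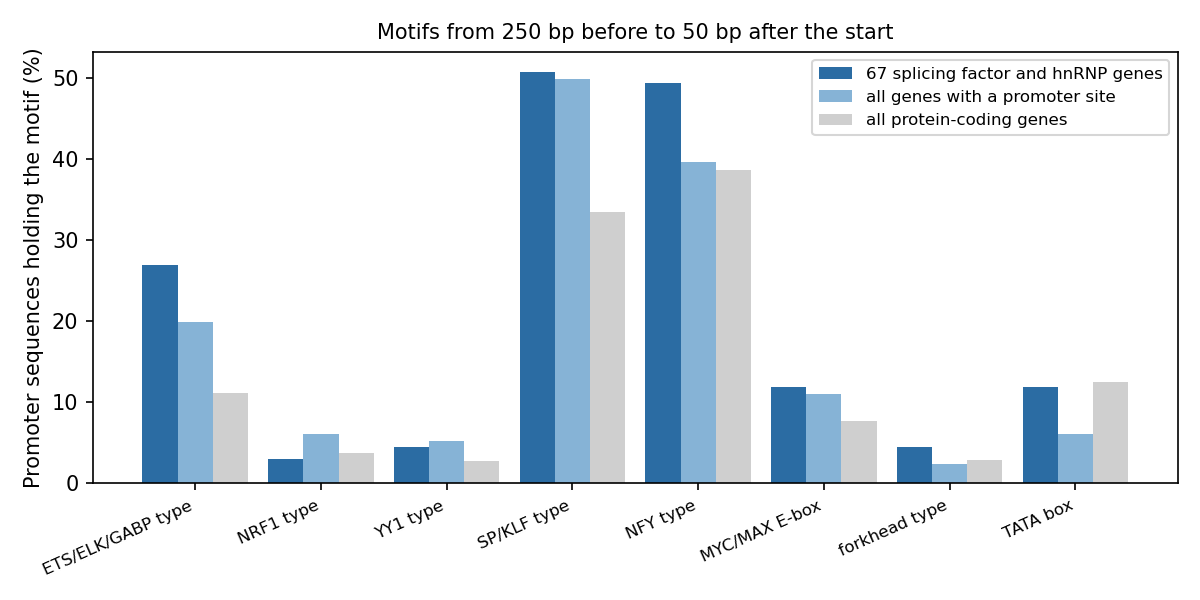
Share of promoter sequences (vertical axis, percent) that hold each of 8 motifs on either strand, for the 67 splicing factor and hnRNP genes (dark bars), all genes with a promoter site (light bars) and all protein-coding genes (grey bars). The ETS-type motif is at 26.9% of the 67 promoters against 11.2% of all promoters, and the SP/KLF-type motif is at a like share in the 67 genes and in all genes with a site.

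These sequence counts were also made with another annotation of starts. RefSeq promoter windows of the same build were matched by symbol for 58 of the 67 genes, and 50 of them had a RefSeq start within 250 bp of the GENCODE start used here. At Hnrnpl, Hnrnpm and Snrpc the nearest RefSeq start was over 1 kb away. In the RefSeq windows CCGGAAG was present for 20 of the 58 genes, against 9.93% of all genes in that table, which also lists noncoding genes. For GCATGCGC and TGTTTAC the small difference from all genes had the other direction there, at 4 of 58 genes against 3.05% and at 2 of 58 against 4.05%. Besides the start, the RefSeq counts differ in the genes matched, in having 76 windows for the 58 genes, and in the background. The part of the start alone was not tested.

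Other genes of the splicing pathway, chosen by function, were counted in the same way. Promoter sites were present at 45 of 52 other core spliceosome genes (86.5%), all 6 genes of the exon junction complex, all 9 genes of the SMN complex that assembles Sm rings, and 6 of 7 SR protein kinases, against 39.3% of all genes. In the same order 35, 2, 4 and 3 of these genes had a CpG-rich promoter, and 68.8% of all genes with such a promoter had a site. The median lower fold of the other core spliceosome genes was 11.5, with Ddx42, a helicase of the U2 particle, the highest at 40.2 and 59.1. Next were Phf5a, an SF3B subunit, at 27.0 and 31.2, and Lsm4, of the ring on U6 RNA, at 24.3 and 48.3. The median was 11.5 for the exon junction complex, 9.53 for the SMN complex and 9.94 for the SR protein kinases. Of the kinases only Srpk3, a muscle kinase, had no site.

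Splicing regulators with tissue-specific expression had sites at 15 of 26 genes (57.7%), against 39.3% of all genes, with a median lower fold of 8.39, against 10.2. Of the 26 genes 16 had a CpG-rich promoter, and 68.8% of all genes with such a promoter had a site. Ptbp1, a repressor of neuronal exons that is high in progenitors, had folds of 30.9 and 37.1. Mbnl1 had folds of 25.6 and 37.5, Mbnl2 had 19.0 and 24.3, and Rbfox2 had 20.3 and 22.3. The neuronal paralog Ptbp2 had folds of 14.1 and 15.8. Of other regulators of neuronal exons, Nova1 had folds of 9.28 and 12.5, Nova2 had 7.51 and 9.20, Elavl2 had 9.72 and 8.87, Elavl4 had 7.07 and 8.87, and Celf3 had 6.19 and 6.90. No peak was present before the filter at the promoters of Rbfox1, Celf5 and Mbnl3, of Srrm4, which drives neuronal microexons, or of Esrp1 and Esrp2, which are epithelial. Rbfox3 (NeuN) had a peak of fold 4.86 in replicate 1 and none in replicate 2. The other 4 without a site, Celf2, Celf4, Elavl3 and Khdrbs3, had promoter peaks in both replicates before the filter, with folds from 4.86 to 7.51. The difference between these regulators and the other lists was not tested.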

How the data were processed

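FOXR2-V5 CUT&RUN was analyzed in the Foxr2 p53LOF line and the V5 control line, 2 replicates each, after brief fixation (0.1% formaldehyde, 1 minute). The authors trimmed reads (Trimmomatic 0.39), aligned them to mm10 (BWA 0.7.17), removed duplicates (Picard 2.26.6) and called peaks in each library (MACS2 2.2.7.1). Versions are those of the submitters' processing notes. The deposited fold is the ratio that MACS2 gave the authors, summit fragments plus 1 over background plus 1. The deposited −log10 p and q come from the same run, and the deposited score is the q column multiplied by 10 without its decimals. Read totals were not used here, so precision comes from summit fragments. These were recovered by a search, from 0.3 to 4, for the background that turns folds up to 30 into whole fragments (within 0.02) with matching Poisson p-values.

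Foxr2 p53LOF peaks were removed if they shared 10 bp or more with a control peak, if the fold or the −log10 q did not exceed 6, or if they reached 10000 bp. Remaining peaks of the replicates were intersected (1 bp minimum). The authors' further intersection with snATAC-seq peaks was not applied. Groups came from the sample titles. Calculations used Python 3.11.15, numpy 2.4.6, scipy 1.17.1 and matplotlib 3.10.9 and were tested on simulated data. No significance test was run, and counts are set beside the share of all genes.

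The genes and lists were chosen with earlier results of these data known. By rule, the text names in each symbol family the 3 genes with the highest lower fold and the one with the lowest, genes without a promoter site, those with a further site of lower fold 10 or more, and those with CCGGAAG at the site centre. The remaining genes are named for completeness, with their values known, except for 1 that enters the counts and medians but is not reported here. Alternatives covered the fold, q, length and control filters, the shared stretch, the promoter window, the gene region, the motif window and each replicate left out. A correction for chromosome level and a restriction to sites holding both summits were chosen after seeing the data, as was the lower fold of 20 used to describe high sites.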

Additional observations from a re-analysis of the deposited data

How the results depend on the processing

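The count of genes with a promoter site was 63 under 9 of 14 alternatives and ranged from 45 (minimum fold of 10, where 19.8% of all genes had a site) to 64 (no minimum on fold or q, 50.7%; or either replicate alone). The count in the gene region ranged from 48 (minimum fold of 10, 27.7% of all genes) to 65 (no minimum, 62.2%; or without Foxr2 p53LOF replicate 1, 55%). The median lower fold was 17.2 with a minimum fold of 10, since weaker sites then drop out. Leaving out a replicate or a control library gave medians from 15.0 to 16.9, the highest without Foxr2 p53LOF replicate 1. With each fold scaled to its chromosome's level, a correction chosen after seeing the data, it was 14.7. The count of genes with CCGGAAG at the site was 4 of 63 in the main setting. With a minimum fold of 10 it was 2 of the 45 genes that kept a site, and the share of all genes at that setting is not given here. It was 8 of 63 in windows at the mean of the replicate summits (12.7%, against 8.09% of genes with a site). In the promoter sequence it was 18 of 67 (26.9%, against 11.2% of all promoters), so the count depends on where the window lies. No paired analysis was possible because the replicate numbers pair no samples across the lines and no test was run. Depth limits the weakest sites: a site at the minimum rests on 13 and 18 fragments.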
